A study of Mus musculus with 8 samples.

Results

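The report concerns the genes of 3 secreted proteins, Prg4, Sostdc1 and Fgl2, in memory CD4 T cells. They were chosen by their array signals, which were higher in cells from mice labelled Rictor-null than in cells from wild-type (WT) mice, so that difference is given as a description and was not tested. The members were the probe sets annotated to 1 of these symbols alone, which gave 1 probe set for Prg4 (gene ID 96875, chromosome 1), 2 for Sostdc1 (gene ID 66042, chromosome 12) and 2 for Fgl2 (gene ID 14190, chromosome 5). They are 3 of 18193 genes with such a probe set on the array, and 3 of 11217 genes that passed the filter on low signals. The samples were T follicular helper (Tfh) and T helper 1 (Th1) cells sorted from spleen at day 60 after infection with LCMV Armstrong, a virus strain that mice clear as an acute infection. The 4 groups were Rictor-null Tfh, WT Tfh, Rictor-null Th1 and WT Th1, each with 2 arrays that the labels call biological replicates, and each sample was a pool of 10 or more mice. All cells were polyclonal and all mice were infected. The sources used here do not give how or in which cells Rictor, the defining subunit of mTOR complex 2, was deleted, the strain, sex and age of the mice, or the sort gates.

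Prg4 encodes lubricin, also called proteoglycan 4, a mucin-like glycoprotein that coats cartilage and other surfaces as a boundary lubricant and binds the hyaluronan receptor CD44. Sostdc1 encodes a secreted cystine-knot protein, related to sclerostin, that binds bone morphogenetic proteins (BMPs) and the Wnt co-receptor LRP6 and thereby limits both signals. In mice, Sostdc1 protein made by Tfh cells has been described as acting on the formation of follicular regulatory T cells. Fgl2 encodes a fibrinogen-related protein that exists as a membrane-bound prothrombinase on macrophages and endothelium and as a secreted form. The secreted form is made by T cells, regulatory T cells among them, and acts through the Fc receptors FcγRIIB and FcγRIII on antigen-presenting cells.

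The array measured each gene as a probe set signal, an intensity on a linear scale with no physical unit. The median signal of an array was 35.7 to 37.7 and its highest signal 16055 to 16327. Differences are on the log2(signal + 32) scale, which shrinks the change of dim probe sets, and they carry standard errors (SE) from a limma fit to all 8 arrays. A gene passed when its Benjamini-Hochberg adjusted p in limma was under 0.05. Of all arrays, Rictor-null Tfh replicate 2 (-12.4) and, next, WT Th1 replicate 1 (-6.51) had the lowest scores on the third principal component. The sign of a component is arbitrary, and Rictor-null Th1 replicate 2 (6.5) lay about as far out on the other side as WT Th1 replicate 1. The pan-T markers Cd4, Cd3d, Cd3e, Cd3g, Thy1 and Cd5 lay above the array median on all 8 arrays. Between lineages, averaged over genotypes, 20.1% of all genes passed in either direction. Of 6 Tfh markers, 5 were higher in Tfh than in Th1 cells, such as Cxcr5 (1.60) and Bcl6 (0.65). Of 4 Th1 markers tested, Cxcr6 was lower in Tfh than in Th1 cells (-0.40, adjusted p = 0.00771), while Tbx21 (-0.04), Ifng (0.11) and Selplg (-0.05) did not pass. Of the marker lists of other cells, the largest lineage difference was that of Eomes, listed for NK cells (3.25 higher in Tfh cells).

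Prg4 (probe set 1449824_at) had signals of 177 and 179 in Rictor-null Tfh cells, against 39.9 and 32.8 in WT Tfh cells. In Rictor-null Th1 cells they were 182 and 186, against 36.1 and 34.6 in WT Th1 cells. All 4 Rictor-null arrays therefore lay close together, all 4 WT arrays lay close together, and the genotypes did not overlap. In order of level the groups were Rictor-null Th1, Rictor-null Tfh, WT Tfh and WT Th1. The first pair of neighbours was 0.04 log2 apart without overlap, and WT Tfh and WT Th1 cells, 0.02 apart with an SD of up to 0.11, overlapped. The ratio of mean signals was 4.89 in Tfh cells and 5.21 in Th1 cells. On the log2 scale the differences were 1.62 ± 0.063 and 1.68 ± 0.063 (SE, n = 2 arrays per group). In WT cells Prg4 lay near the median of its array, above it on 1 of 4 arrays, so the probe set passed the filter, which asked for a signal above the median on at least 2 arrays, through the Rictor-null arrays. The array table carries no detection calls, and whether WT cells express Prg4 at all was not tested. Prg4 overlaps the end of Tpr in the RefSeq annotation of GRCm38.p6, and Tpr was not analysed here.

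**Figure D1:**
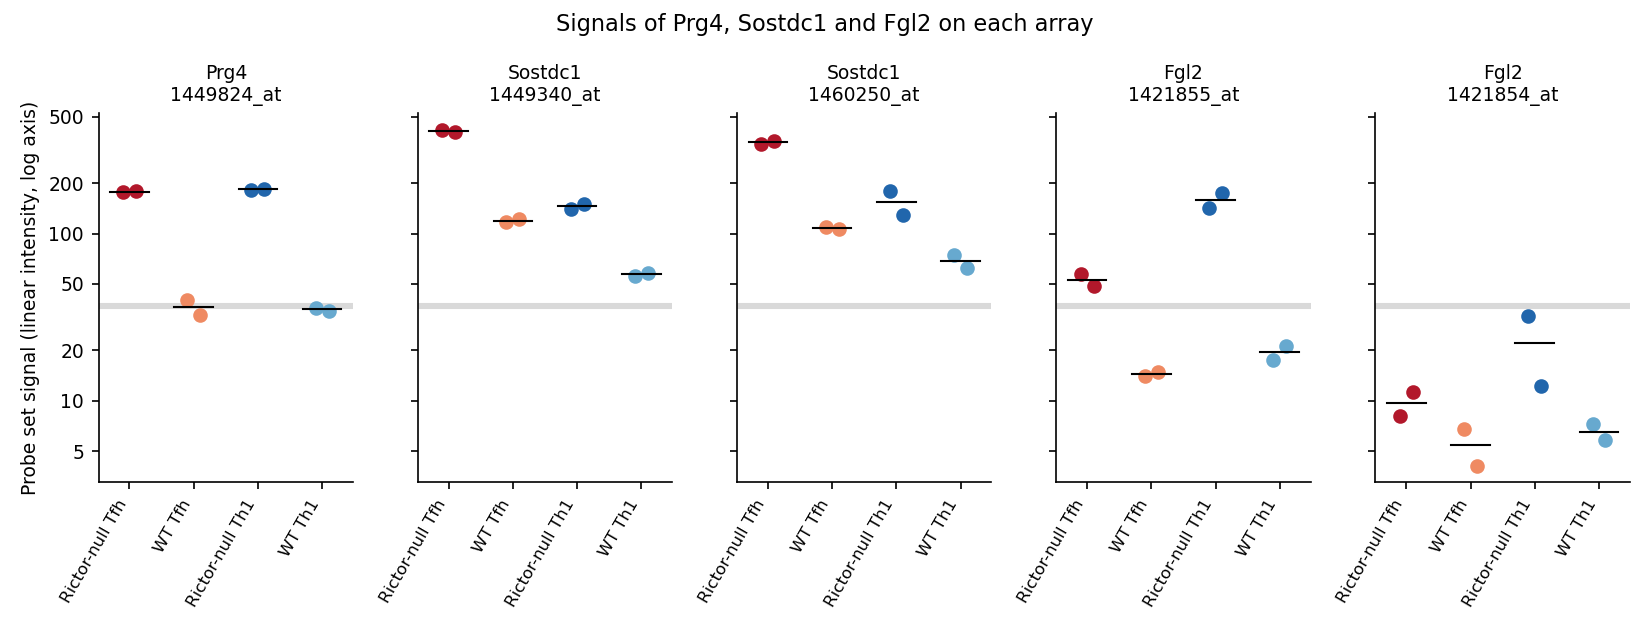
Signal of every probe set of Prg4, Sostdc1 and Fgl2 on each array (linear intensity, log axis). Points are arrays, 2 per group, black lines are group means, and the grey band spans the array medians (35.7 to 37.7). Prg4 is at 177 to 186 on Rictor-null arrays of both lineages, Sostdc1 is highest in Rictor-null Tfh cells, and Fgl2 is highest in Rictor-null Th1 cells.

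Sostdc1 had signals of 418 and 404 in Rictor-null Tfh cells, against 117 and 122 in WT Tfh cells, by its brightest probe set (1449340_at). In Rictor-null Th1 cells the signals were 141 and 151, against 55.9 and 58.2 in WT Th1 cells. The order of the groups was thus Rictor-null Tfh, Rictor-null Th1, WT Tfh and WT Th1, with no overlap between neighbours. The closest neighbours, Rictor-null Th1 and WT Tfh cells, were 0.23 log2 apart with an SD between replicates of up to 0.057. The genotype difference was 1.55 ± 0.058 in Tfh cells and 1.00 ± 0.058 in Th1 cells, which correspond to ratios of mean signals of 3.44 and 2.56. The second probe set (1460250_at) gave 345 and 359 in Rictor-null Tfh cells, 106 and 109 in WT Tfh cells, 129 and 181 in Rictor-null Th1 cells, and 61.9 and 74.8 in WT Th1 cells. It kept the same order of groups, with genotype differences of 1.46 ± 0.13 and 0.88 ± 0.13. Both probe sets lay above the array median on all 8 arrays, so Sostdc1 was above it in every group, WT Th1 cells included.

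Fgl2 had the opposite order of lineages. By its brighter probe set (1421855_at) the signals were 57.1 and 48.3 in Rictor-null Tfh cells, against 14.0 and 14.8 in WT Tfh cells. They were 143 and 174 in Rictor-null Th1 cells, against 17.6 and 21.4 in WT Th1 cells. The order of levels was Rictor-null Th1, Rictor-null Tfh, WT Th1 and WT Tfh. The last of these neighbours, WT Th1 and WT Tfh cells, were 0.15 log2 apart, with an SD between replicates of up to 0.076. The genotype difference was 0.86 ± 0.084 in Tfh cells and 1.88 ± 0.084 in Th1 cells, or ratios of mean signals of 3.65 and 8.10. All 4 WT arrays lay below their array median for this probe set and all 4 Rictor-null arrays above it, so Fgl2 passed the filter only where it was high. The dimmer probe set (1421854_at) was below the median on all 8 arrays and did not pass the filter. It read 8.11 and 11.3 in Rictor-null Tfh cells, 4.09 and 6.75 in WT Tfh cells, 12.2 and 32.2 in Rictor-null Th1 cells, and 5.84 and 7.24 in WT Th1 cells. Its differences were 0.16 ± 0.16 and 0.47 ± 0.16, in the same direction as the brighter probe set and smaller. Fgl2 lies within the span of Ccdc146, whose only probe set read 2.99 to 3.89 on Rictor-null arrays and 3.61 to 5 on WT arrays.

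**Figure D2:**
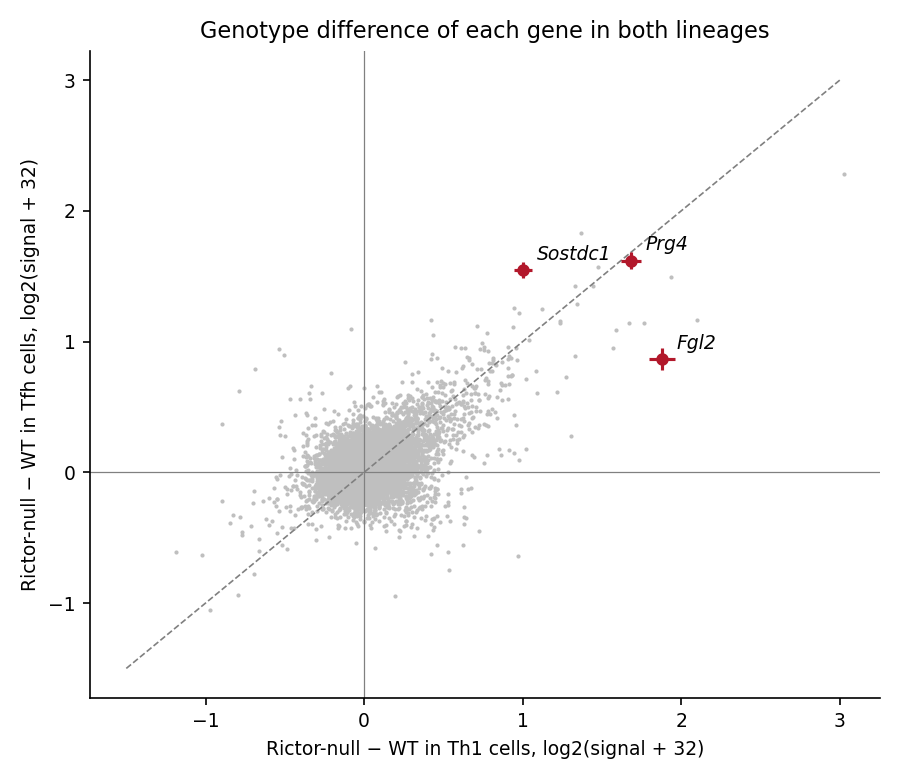
Difference between Rictor-null and WT cells for each of 11217 genes, in Th1 cells (x) and Tfh cells (y), both as log2(signal + 32). Bars are SE and the dashed line marks equal differences. Prg4 (1.68 and 1.62) lies close to the line, Sostdc1 (1.00 and 1.55) above it and Fgl2 (1.88 and 0.86) below it.

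The RefSeq table of promoters (GRCm38.p6) holds an entry for Fgl2 alone of the 3 genes, and it is shown so that the letters searched for motifs of T cell transcription factors can be read. It covers 250 bases before to 50 bases after the start site, chr5:21372423-21372722 on the plus strand, with the only motif match in capitals.
Fgl2 promoter: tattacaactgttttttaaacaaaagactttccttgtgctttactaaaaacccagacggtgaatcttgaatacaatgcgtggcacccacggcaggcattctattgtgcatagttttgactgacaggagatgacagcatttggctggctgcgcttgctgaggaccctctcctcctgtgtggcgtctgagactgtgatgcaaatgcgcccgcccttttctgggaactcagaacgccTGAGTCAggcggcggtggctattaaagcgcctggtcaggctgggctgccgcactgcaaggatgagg
The match is TGAGTCA, a form of the AP-1 motif TGANTCA, and starts 16 bases before the start site. Of 32851 promoters of the same length, 7.81% held that motif on either strand. The letters of the FOXO motif GTAAACA (in 3.65% of promoters), the TCF/LEF motif CTTTGAT (3.73%) and the IRF motif (3.44%) were not in this window on either strand. With 1 match in all, no motifs overlapped. A match of letters is a description of the sequence, and binding was not measured.

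Sorted lineage took no part in the choice of the 3 genes, and the difference between Tfh and Th1 cells averaged over both genotypes is orthogonal to the genotype differences. Of all genes tested, 20.1% passed in that comparison, as did 2 of the 3 members, Sostdc1 and Fgl2, in opposite directions. Sostdc1 was higher in Tfh than in Th1 cells by 1.04 ± 0.041 (SE, adjusted p = 1.25e-07), the difference ranked 6 from the top of 11217 genes. Fgl2 was lower in Tfh than in Th1 cells (-0.66 ± 0.059, adjusted p = 3.96e-05). That value averages -1.16 in Rictor-null cells and -0.15 in WT cells, where Fgl2 lay below the array median. Both Fgl2 and Prg4 reached the filter through the Rictor-null arrays, whose high signals also chose them. The Fgl2 call thus rests mainly on those arrays, and in WT cells the 95% interval of its lineage difference was -0.33 to 0.04. Prg4 did not pass (-0.01 ± 0.044, adjusted p = 0.884), and its 95% interval, -0.11 to 0.09, is the range of lineage differences that these arrays leave for it. These calls were the same under all 17 alternative settings, with adjusted p of 3.08e-08 to 1.41e-05 for Sostdc1, 1.56e-05 to 0.00106 for Fgl2 and 0.547 to 0.998 for Prg4. The second Sostdc1 probe set passed too (0.77 ± 0.09, adjusted p = 0.00645), and the dim Fgl2 probe set did not (-0.20 ± 0.11, adjusted p = 0.331).

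Within 1 genotype the lineage difference uses the same signals that chose the genes, and 2 of the 3 reached the filter through the Rictor-null arrays, so these values are a description with no test. Within Rictor-null cells, where 9.67% of all genes passed, the difference was 1.31 ± 0.058 for Sostdc1, -1.16 ± 0.084 for Fgl2 and -0.04 ± 0.063 for Prg4. Within WT cells, where 14.7% passed, it was 0.77 ± 0.058 for Sostdc1, -0.15 ± 0.084 for Fgl2 and 0.02 ± 0.063 for Prg4. The second Sostdc1 probe set gave 1.05 ± 0.13 in Rictor-null cells and 0.48 ± 0.13 in WT cells. The Fgl2 signals in WT cells were below the array median in both lineages. The genotype difference in Tfh cells minus that in Th1 cells was 0.55 ± 0.082 for Sostdc1, -1.02 ± 0.12 for Fgl2 and -0.06 ± 0.089 for Prg4. It is built from the values that chose the genes and was not tested for them. In pooled bulk RNA, a larger share of cells that express a gene and more RNA of it per cell cannot be told apart.

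**Figure D3:**
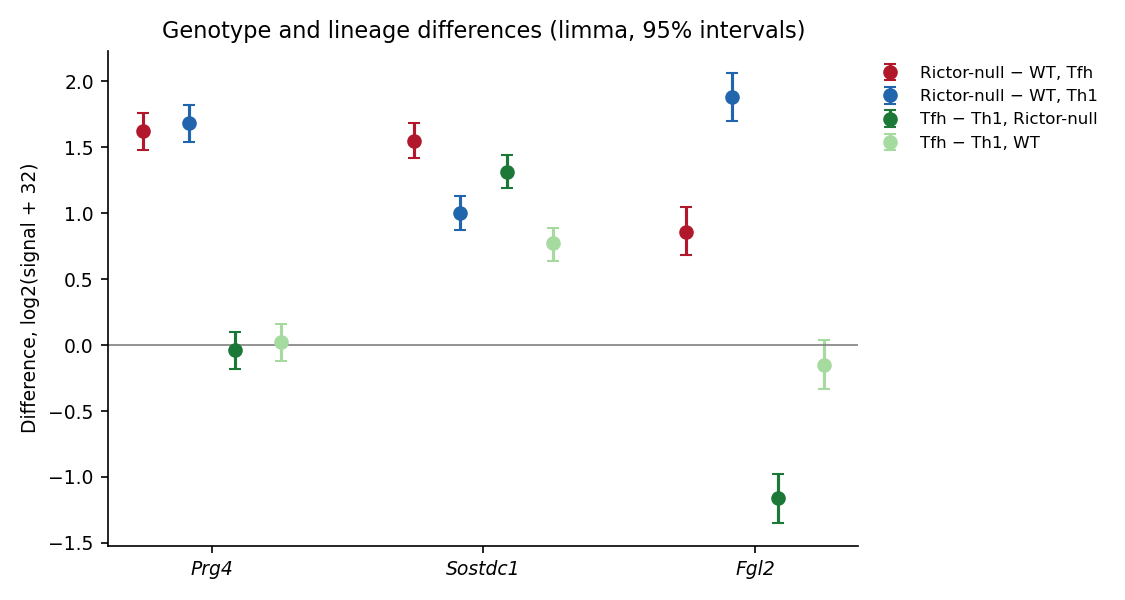
Differences on the log2(signal + 32) scale for the brightest probe set of each gene, with 95% intervals from limma (2 arrays per group). Genotype differences (red, blue) are above 0 for all 3 genes, while the lineage differences (green) are near 0 for Prg4, above 0 for Sostdc1 and, in Rictor-null cells, at -1.16 for Fgl2.

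The added constant sets the size of these values, since WT signals of Prg4 and Fgl2 are near or below it. With a constant of 8 the genotype differences in Tfh and Th1 cells were 2.07 and 2.15 for Prg4, 1.72 and 1.24 for Sostdc1, and 1.43 and 2.59 for Fgl2. With a constant 4 times the one used, they were 0.90 and 0.93 for Prg4, 1.12 and 0.57 for Sostdc1, and 0.34 and 0.95 for Fgl2. The order of the genes within Th1 cells stayed Fgl2, Prg4, Sostdc1 at each constant, and in Tfh cells Sostdc1 exceeded Prg4 at the highest constant only.

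The genes whose pattern over the 8 arrays was most like each member were found by the root mean square difference of log2(signal + 32), after each gene was centred on its own mean. For Prg4 they were Plac8 (0.175 log2), the repressor gene of effector T cells Zeb2 (0.179), the zinc finger gene Plagl1 (0.209), the sphingosine phosphate receptor gene S1pr5 (0.211) and the surface protein gene Cd83 (0.212). The median over all genes was 0.822. Plac8 signals were 2054 and 2172 in Rictor-null Tfh cells and 769 and 763 in WT Tfh cells, and 2244 and 2430 in Rictor-null Th1 cells and 927 and 894 in WT Th1 cells. As with Prg4, the split followed genotype, with a much smaller difference between lineages (-0.19).

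For Sostdc1 the nearest genes were the interferon-induced Ifitm1 (0.188), the transcription factor gene Tox2 of the Tfh program (0.207), the inhibitory receptor gene Lag3 (0.304), the cytokine gene Il10 (0.32) and Tnfsf8, which encodes CD30 ligand (0.362), against a median of 0.842 over all genes. Ifitm1 signals were 669 and 663 in Rictor-null Tfh cells and 165 and 163 in WT Tfh cells. In Th1 cells they were 285 and 290 in the Rictor-null arrays and 99.8 and 84.6 in the WT arrays, which is the same order of groups as for Sostdc1. Tox2 differed in that its WT Tfh signals (428 and 432) lay above its Rictor-null Th1 signals (376 and 361), with 897 and 1045 in Rictor-null Tfh cells and 225 and 201 in WT Th1 cells.

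For Fgl2 they were the gut-homing chemokine receptor gene Ccr9 (0.158), Prr5l, whose protein binds mTOR complex 2 (0.273), the chemokine gene Cxcl3 (0.307), Cd83 (0.332) and the phospholipase C gene Plcb4 (0.333), against a median of 0.798. Ccr9 signals were 156 and 144 in Rictor-null Th1 cells and 28 and 30.9 in WT Th1 cells, and 66.8 and 69.8 in Rictor-null Tfh cells and 20.1 and 19.4 in WT Tfh cells. Like Fgl2, Ccr9 was below the array median on every WT array. Between the members themselves the measure was 0.434 for Prg4 and Fgl2, 0.581 for Prg4 and Sostdc1, and 0.937 for Sostdc1 and Fgl2. That last value is larger than the median difference of either gene from all genes, although both are higher in Rictor-null cells. The measure counts the size of changes as well as their shape, so it does not show how unlike the 2 shapes are.

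**Figure D4:**
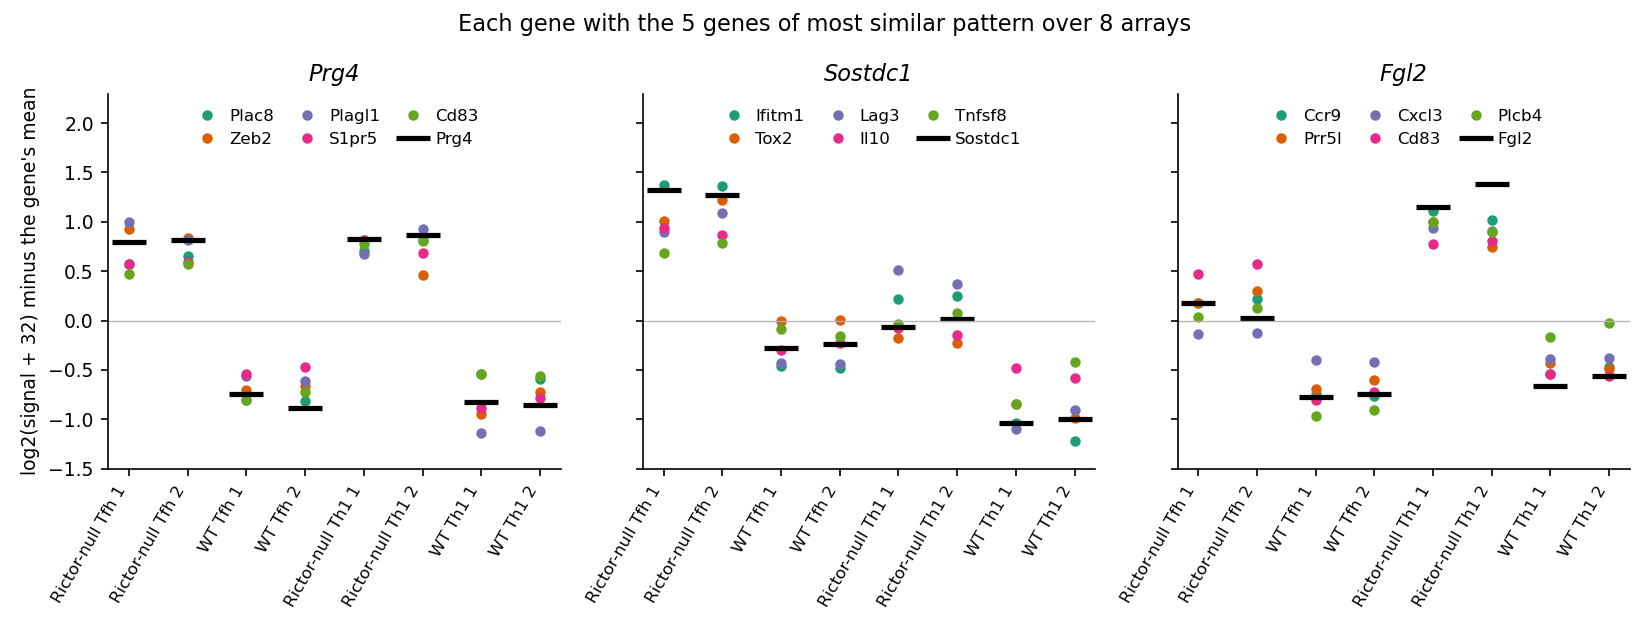
Profiles of Prg4, Sostdc1 and Fgl2 (black bars) and of the 5 genes most like each (coloured points) on the 8 arrays, as log2(signal + 32) minus the gene's own mean. Each panel shows a different shape: a step between genotypes for Prg4, highest values in Rictor-null Tfh cells for Sostdc1 and highest values in Rictor-null Th1 cells for Fgl2.

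The partners of the 3 proteins were then read from lists. Over all genes, 11.3% rose and 2.28% fell in Rictor-null Tfh cells, and 7.54% rose and 2.97% fell in Rictor-null Th1 cells, against WT cells. All 3 members are among the genes that rose in both, by the rule that chose them. Before adjustment, the limma p was under 0.05 for 3396 of 11217 genes in Tfh cells and for 2785 in Th1 cells. The split depends on scaling: 1270 genes rose and 256 fell in Tfh cells and 846 rose and 333 fell in Th1 cells, against 742 and 432 in Tfh cells and 669 and 534 in Th1 cells after quantile normalization. With single arrays left out, the calls in both directions numbered 457 (without WT Tfh replicate 1) to 2846 (without Rictor-null Tfh replicate 1) in Tfh cells, and 579 (without Rictor-null Th1 replicate 1) to 1776 (without either Rictor-null Tfh array) in Th1 cells. Between lineages, 519 genes were higher and 1731 lower in Tfh than in Th1 cells, against 631 and 947 after quantile normalization. In Rictor-null cells these counts were 367 and 718, against 442 and 552. In WT cells they were 345 and 1302, against 405 and 603.

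Of the BMP pathway, which Sostdc1 protein restrains, 1 of 4 ligand genes passed the signal filter (Bmp7), and it did not pass the test (-0.08 and 0.10 in Tfh and Th1 cells). Among BMP receptors and Smad mediators, 2 of 9 rose in Tfh cells and 3 in Th1 cells, with 0 falls and medians of 0.12 and 0.09, where the medians over all genes were 0.04 and 0.00. The activin and BMP receptor gene Acvr2a was higher in Rictor-null Th1 cells by 0.48 ± 0.066 (adjusted p = 0.000875), with signals of 158 and 178 in Rictor-null Th1 cells against 113 and 110 in WT Th1 cells. In Tfh cells Acvr2a (0.24 ± 0.066, adjusted p = 0.0368) and the mediator gene Smad5 (0.31 ± 0.074, adjusted p = 0.0205) passed, and both calls ended when Rictor-null Tfh replicate 2 or either WT Tfh array was left out (adjusted p = 0.106 to 0.203). Other probe sets of Smad5 gave 0.04 and 0.06 in Tfh cells. The inhibitory Smad7 rose in Th1 cells (0.27 ± 0.055, adjusted p = 0.0111), a call that ended without either Rictor-null Th1 array or WT Th1 replicate 2 (0.0596 to 0.0804). The type I receptor gene Bmpr1a (0.11 and -0.05 in Tfh and Th1 cells) and the mediator gene Smad1 (0.12 and -0.02) did not pass in either lineage. Bmpr2, the type II receptor gene, rose in Th1 cells (0.27 ± 0.063, adjusted p = 0.0186) and had 0.20 ± 0.063 in Tfh cells (adjusted p = 0.0606). The Th1 call of Bmpr2 ended without any single Th1 array (adjusted p = 0.0822 to 0.107). Without the 2 arrays lowest on the third component, 0 of the 9 rose in Tfh cells by limma and 3 in Th1 cells, and quantile normalization gave the same counts. In Tfh cells 5 of the 9 had an unadjusted p under 0.05, with Acvr1 among them as a fall (-0.20 ± 0.085), against 3396 of all 11217 genes.

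Of the BMP target genes, which encode inhibitors of helix-loop-helix factors, Id3 rose in Tfh cells by 0.69 ± 0.085 (adjusted p = 0.000428) and Id1 by 0.33 ± 0.075 (adjusted p = 0.0175). Id2 gave -0.29 ± 0.14 in Tfh cells and 0.26 ± 0.14 in Th1 cells, neither passing, and 0 of the 3 passed limma in Th1 cells, where 1, Id3, had an unadjusted p under 0.05. Without the 2 arrays lowest on the third component, 1 of the 3 rose in Tfh cells and 1 in Th1 cells. A second Id2 probe set passed in Th1 cells (0.50, adjusted p = 0.00658), and another gave 0.05 (adjusted p = 0.711). The Id1 call was lost without WT Tfh replicate 1 (adjusted p = 0.0581), WT Tfh replicate 2 (0.164) or Rictor-null Tfh replicate 2 (0.0957). Among other extracellular regulators of BMPs, Twsg1, whose protein binds BMPs together with chordin, rose in both lineages, in Tfh cells by 0.69 ± 0.077 (adjusted p = 0.000228), while the value for Th1 cells was 0.57 ± 0.077 (adjusted p = 0.000769). Its signals were 261 and 308 in Rictor-null Tfh cells against 155 and 171 in WT Tfh cells, and 232 and 221 in Rictor-null Th1 cells against 146 and 139 in WT Th1 cells, with no overlap. Chrd and Grem1 were the other 2 tested, and neither passed.

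On the Wnt side, Lrp6, the co-receptor that Sostdc1 protein binds, gave in Tfh cells 0.06 ± 0.060 (adjusted p = 0.536), while the value for Th1 cells was 0.01 ± 0.060 (adjusted p = 0.936), with signals of 172 to 195 over the 8 arrays. Among 7 receptor genes, 2 rose in Tfh cells and 1 in Th1 cells. Ryk, a Wnt receptor of the tyrosine kinase class, rose by 0.45 ± 0.054 in Tfh cells (adjusted p = 0.000392), and another probe set of it gave 0.41 (adjusted p = 0.0174). Its rise in Th1 cells (0.21 ± 0.054, adjusted p = 0.0341) was lost without any 1 of the WT Tfh, Rictor-null Th1 and WT Th1 arrays (0.0726 to 0.192). Fzd5 rose by 0.36 ± 0.064 in Tfh cells (adjusted p = 0.00463) while its other probe set gave 0.04, and the call ended without WT Tfh replicate 2 (adjusted p = 0.0728). Of 11 mediators and targets, 0 passed in Tfh cells by limma (3 had an unadjusted p under 0.05, and 1 passed after quantile normalization) and 1 in Th1 cells. That gene was Lef1, a transcription factor of the Wnt pathway and of T cell memory, which fell by -0.33 ± 0.068 in Th1 cells (adjusted p = 0.0102). Its call ended without Rictor-null Th1 replicate 1 (adjusted p = 0.105) or WT Th1 replicate 1 (0.0605). A second Lef1 probe set gave -0.52 in Th1 cells (adjusted p = 0.00239) and, against the brighter probe set (-0.12), 0.47 in Tfh cells (adjusted p = 0.00456). Axin2, a feedback target of Wnt signals, gave -0.16 ± 0.064 in Tfh cells and -0.06 ± 0.064 in Th1 cells, neither passing. Of 6 Wnt antagonist genes tested, 0 passed limma in either lineage, with 1 in each at an unadjusted p under 0.05, and medians were -0.12 and -0.04. In Th1 cells 1 of them fell after quantile normalization, and 1 fell without the 2 arrays lowest on the third component.

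For Fgl2, the other fibrinogen-domain genes were mostly below the filter (11 of 15 measured), Fgl1 among them with a highest signal of 16.3. Of the 4 tested, 0 passed by limma in either lineage, and 2 had an unadjusted p under 0.05 in Tfh cells and 0 in Th1 cells. After quantile normalization 1 of the 4 fell in Tfh cells. Of the receptors of the secreted protein, Fcgr2b did not pass by its brightest probe set (-0.14 ± 0.062 in Tfh cells and 0.07 ± 0.062 in Th1 cells). Another of its probe sets was higher in Rictor-null Tfh cells (0.43, adjusted p = 0.00189), while the remaining ones gave 0.04 and 0.00 there without passing. Fcgr3 lay below the filter with a highest signal of 41.4. F2r, which encodes the thrombin receptor PAR1, rose in both lineages, in Tfh cells by 0.51 ± 0.067 (adjusted p = 0.000678), while the value for Th1 cells was 0.43 ± 0.067 (adjusted p = 0.002). Its signals were 943 and 1070 in Rictor-null Tfh cells against 688 and 707 in WT Tfh cells, and 945 and 984 in Rictor-null Th1 cells against 702 and 715 in WT Th1 cells, a separation by genotype alone. Its other probe set gave 0.20 (adjusted p = 0.445) and 0.70 (adjusted p = 0.0239).

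For Prg4, the receptor gene Cd44 had signals of 1769 and 1755 in Rictor-null Tfh cells against 2024 and 2042 in WT Tfh cells, a fall of -0.20 ± 0.054 (adjusted p = 0.0322). In Th1 cells Cd44 gave -0.03 ± 0.054. The Tfh call did not hold without WT Tfh replicate 1 (adjusted p = 0.168), WT Tfh replicate 2 (0.197) or Rictor-null Tfh replicate 2 (0.0974), and its other probe sets gave -0.08 and 0.15. The hyaluronan synthase gene Has1 also fell in Tfh cells (-0.21 ± 0.062, adjusted p = 0.0455), and that call was lost without any 1 array other than Rictor-null Tfh replicate 1 (0.0536 to 0.239). Of the 4 genes of this list tested, 2 fell in Tfh cells, against 1 after quantile normalization and 0 by limma without the 2 arrays lowest on the third component. The innate receptor genes Tlr2 and Tlr4, whose products also bind lubricin, lay below the filter with highest signals of 26.5 and 14.0. Among 9 proteoglycan genes tested, 1 rose in each lineage, and in Tfh cells 2 fell, Sdc3 (-0.27 ± 0.061, adjusted p = 0.0175) and Cspg4 (-0.23 ± 0.064, adjusted p = 0.0373). Both calls were lost without either WT Tfh array (0.0763 to 0.219), and that of Cspg4 also without Rictor-null Tfh replicate 2 (0.183). The gene that rose was Spock2, which encodes a secreted proteoglycan of the testican family. Its signals were 98.4 and 120 in Rictor-null Tfh cells against 31.5 and 38.9 in WT Tfh cells, and 95.6 and 87.8 in Rictor-null Th1 cells against 41.6 and 38.9 in WT Th1 cells. The differences were 1.07 ± 0.082 (adjusted p = 1.94e-05) and 0.78 ± 0.082 (adjusted p = 0.000131), and its other probe set gave 0.16 and 0.09 without passing. Srgn, the proteoglycan of cytotoxic and other granules, gave 0.01 ± 0.057 and 0.09 ± 0.057 and did not pass. Of 3 measured genes whose proteins share domains with Prg4, 0 reached the filter.

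**Figure D5:**
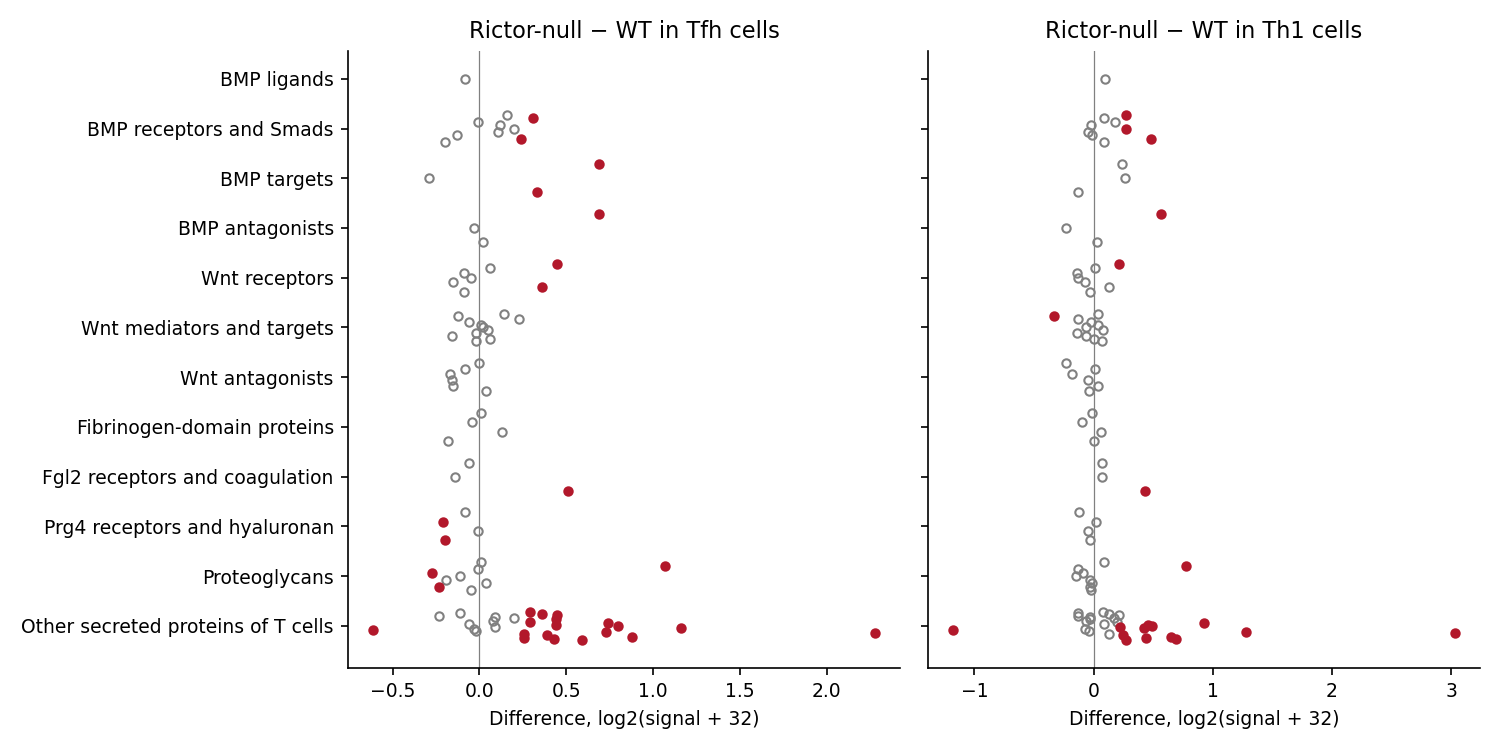
Difference between Rictor-null and WT cells, log2(signal + 32), for every tested gene of the partner lists, in Tfh cells (left) and Th1 cells (right). Filled red points passed limma at an adjusted p under 0.05 and open points did not. Most genes of the BMP, Wnt and fibrinogen lists lie near 0, and the other secreted proteins of T cells spread to higher values.

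Among 27 other secreted proteins of T cells, 17 rose and 1 fell in Tfh cells, and 12 rose and 1 fell in Th1 cells, with medians of 0.29 and 0.20. Without the 2 arrays lowest on the third component, 15 rose and 2 fell in Tfh cells and 12 rose and 1 fell in Th1 cells. The list was drawn up with earlier results of these arrays known, so its direction is not independent evidence. Gzma, the granule protease gene, had the largest rise of the list (2.28 ± 0.069 and 3.03 ± 0.069 in Tfh and Th1 cells, adjusted p = 4.86e-08 and 2.42e-09). Il10 showed the shape of Sostdc1, with signals of 154 and 146 in Rictor-null Tfh cells against 47.2 and 51.3 in WT Tfh cells, and 60.6 and 56.4 in Rictor-null Th1 cells against 37.7 and 33.3 in WT Th1 cells. Its genotype difference was larger in Tfh than in Th1 cells by 0.74 (adjusted p = 0.0039), in a comparison that 1.22% of genes passed. Il10 is also among the genes picked for likeness to Sostdc1 on these arrays, so the shared shape is not independent evidence. Il21, the cytokine of B cell help, rose by 0.80 ± 0.070 and 0.49 ± 0.070 (adjusted p = 4.56e-05 and 0.00107), while Ifng did not pass (-0.02 ± 0.057 and -0.04 ± 0.057).

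Other cells also make these proteins, so their markers were read on the same arrays. Of 9 macrophage and monocyte markers, 6 lay below the array median on all 8 arrays, and their summed signal was 240 to 242 in Rictor-null Tfh cells against 278 to 280 in WT Tfh cells, and 238 to 245 in Rictor-null Th1 cells against 242 to 262 in WT Th1 cells. Adgre1 and Cd14 read at most 20.9 and 23.4, while Fcgr1 (39.6 to 73.8) and Csf1r (45.1 to 59.7) lay above the median on all 8 arrays. Of 8 stromal markers, 4 lay below the median on all arrays, with sums of 231 to 244 and 213 to 229 in Rictor-null Tfh and Th1 cells against 254 to 256 and 222 to 240 in WT Tfh and Th1 cells. The part of macrophages and stromal cells in the signals of the 3 genes was not tested. The sums of 7 dendritic cell markers were 295 to 299 and 276 to 279 in Rictor-null Tfh and Th1 cells against 284 to 291 and 265 in WT Tfh and Th1 cells, and those of 5 plasma cell markers, led by Xbp1 and Prdm1, were 1465 to 1571 and 1503 to 1587 against 1359 to 1391 and 1284 to 1404. Both sums were thus higher with the Rictor-null genotype, as the 3 genes were. Of 4 dendritic cell markers tested, Cd74 alone passed, as a rise of 0.23 in Tfh and 0.41 in Th1 cells. Its Th1 signals were 96 and 89 against 56.2 and 67.8. Flt3 was lower in Rictor-null Th1 cells (37.1 and 36.2 against 45.1 and 43.8) without passing, and gave 0.07 in Tfh cells. Of 3 plasma cell markers tested, Prdm1 alone passed, as a rise in Th1 cells (0.32). In Rictor-null Tfh cells Xbp1 was higher (1440 and 1335 against 1260 and 1222) without passing. Jchain, below the filter, was lower there (15.4 and 12.9 against 18 and 19.2). The part of dendritic and plasma cells was not tested. B cell markers summed to 416 to 477 and 265 to 314 in Rictor-null Tfh and Th1 cells against 459 to 461 and 341 to 375 in WT Tfh and Th1 cells. The 3 NK cell markers measured summed to 1061 to 1213 and 110 to 118 in Rictor-null Tfh and Th1 cells against 863 to 943 and 89.6 to 102 in WT Tfh and Th1 cells, led by Eomes, which T cells also express. That sum followed lineage as Sostdc1 did, and its part in the difference of Sostdc1 was not tested. Tfh markers, too, were higher with the Rictor-null genotype. The summed signal of the 6 was 4740 to 4763 in Rictor-null Tfh cells against 3449 to 3546 in WT Tfh cells, and 3497 to 3677 in Rictor-null Th1 cells against 2733 to 2829 in WT Th1 cells. In Tfh cells, where 11.3% of all genes rose, 6 of the 6 did, such as Pdcd1 (0.77 ± 0.070, adjusted p = 5.89e-05) and Cxcr5 (0.49 ± 0.086, adjusted p = 0.00395). In Th1 cells, where 7.54% of all genes rose, 4 of the 6 did, while Cxcr5 and Bcl6 gave 0.00 and did not pass. The part of these markers in the differences of Sostdc1 was not tested. The sum of regulatory T cell markers moved with the 3 genes. The summed signal of 6 such markers was 4979 to 5135 in Rictor-null Tfh cells against 3112 to 3189 in WT Tfh cells, and 4646 to 4761 in Rictor-null Th1 cells against 3007 to 3093 in WT Th1 cells. Ctla4 and Ikzf2, which activated T cells can also express, made up most of it. Of the 5 tested, 3 rose in each lineage, against 11.3% and 7.54% of all genes in Tfh and Th1 cells. Il2ra passed in neither (0.12 and 0.18 in Tfh and Th1 cells). Foxp3, the defining gene, read 27.5 and 41.5 in Rictor-null Tfh cells against 18.7 and 22.9 in WT Tfh cells, and 35.0 and 27.5 in Rictor-null Th1 cells against 16.9 and 23.7 in WT Th1 cells, and did not pass the filter. Whether regulatory T cells had a part in the differences of Fgl2, Sostdc1 and Prg4 was not tested.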

How the data were processed

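Signals were deposited by the authors as 1 linear intensity per probe set and array, for 45037 probe sets. Per the submitters' processing notes MAS5 and RMA were used, with no version, role or order given, and per the labels' protocols biotin-labelled cRNA was made from 100 ng of total RNA. Gene symbols came from GEO's platform annotation (34945 probe sets with 1 symbol, 932 with several, 9160 with none), and no scaling was added. Probe sets above their array's median on at least 2 of 8 arrays were kept (23725), and each gene was represented by its brightest kept probe set by mean signal (11217 genes). Values were log2(signal + 32). A limma 3.58.1 model in R 4.3.3 had 1 mean for each group, used all 8 arrays and was moderated (4 residual and 6.66 prior degrees of freedom), with Benjamini-Hochberg adjustment over all genes. Other probe sets of the 3 genes were fitted over all probe sets without the filter, and those of other genes over kept probe sets. An exact permutation test of 2 against 2 arrays cannot go below p = 0.333 and was not run. The 2 arrays of a group are labelled biological replicates. The number of arrays limits the precision. The method was tested on simulated data. The members and lists were chosen with earlier results of these data known. Named genes were the 3 members, the 5 genes most like each, up to 4 called genes of each list with the smallest p, and fixed partners. Alternatives covered quantile normalization, other constants, no filter, the mean of probe sets, a variance trend, array weights, the replicate number as a covariate and each array left out. Leaving out both arrays that lay lowest on the third component was added after seeing the data. Figures were drawn with matplotlib 3.10.9 in Python 3.11.15.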

Additional observations from a re-analysis of the deposited data

Results flagged for a closer look

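Among the named list genes and fixed partners, 4 had a genotype difference that passed limma's test of the difference between lineages. The genes most like each member were read in this comparison only where they were also list genes or fixed partners, as Il10 was. Il10 differed more in Tfh cells by 0.74 (adjusted p = 0.0039). Gzma (-0.75, adjusted p = 0.0051) and Gzmb (-0.55, adjusted p = 0.014) differed more in Th1 cells. Igfbp4 fell less in Tfh than in Th1 cells, a difference of 0.58 (adjusted p = 0.0261). The call of Gzma ended without WT Tfh replicate 1 (-0.72), and with a constant 4 times the one used (-0.34, adjusted p = 0.0808). That of Gzmb ended without either WT Tfh array, either Rictor-null Th1 array or WT Th1 replicate 2 (differences of -0.56 to -0.53). That of Igfbp4 ended without any 1 of the WT Tfh, Rictor-null Th1 and WT Th1 arrays (differences of 0.49 to 0.66). The Igfbp4 call also ended with a constant of 8, no filter, the mean of its probe sets (0.35) or the replicate block (adjusted p = 0.0544 to 0.095).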

How the results depend on the processing

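The calls of Prg4, Sostdc1 and Fgl2 in the lineage difference averaged over genotypes stayed on the same side of the threshold under all 17 alternatives. Genotype differences of the members kept their sign, and their size moved by more than the SD between replicates as follows. In Tfh and Th1 cells a constant of 8 gave 2.07 and 2.15 for Prg4, 1.72 and 1.24 for Sostdc1, and 1.43 and 2.59 for Fgl2, and a constant 4 times the one used gave 0.90 and 0.93, 1.12 and 0.57, and 0.34 and 0.95. Sostdc1 had 1.47 in Tfh cells after quantile normalization, and 1.51 and 0.94 with the mean of its probe sets. With arrays left out in turn, Prg4 in Tfh cells had 1.54 to 1.70, and in Th1 cells Sostdc1 had 0.96 to 1.04 and Fgl2 1.76 to 2.00. Counts of genes called moved more. With array weights they were 661 between lineages in Rictor-null cells and 3175 in WT cells, and quantile normalization gave 1008 in WT cells. With arrays left out in turn, the count was 964 to 3062 between lineages over both genotypes, 398 to 1665 in Rictor-null cells, 194 to 2674 in WT cells, 457 to 2846 between genotypes in Tfh cells and 579 to 1776 in Th1 cells, against 2250, 1085, 1647, 1526 and 1179 with all arrays. The lowest counts came without WT Tfh replicate 1 or Rictor-null Th1 replicate 1, and leaving out any of the 8 arrays moved at least 1 of these counts by over 1.5 times. The replicate block lowered the count between lineages in WT cells to 995 and left these calls as they were. Deviations of same-numbered arrays correlated across genes at -0.515 to 0.277 over 6 pairs of groups, so the numbers were not taken to pair the arrays. Of 61 calls of other named genes, 45 held under every alternative, 16 were lost under at least 1, and 0 reversed. These include genotype calls of the genes most like each member. Those genes were picked for matching members that are higher in Rictor-null cells, so their calls were largely set by that choice. The share that held is therefore not a measure of how stable the list genes and fixed partners are. Signals of Prg4 and Fgl2 near or below the array median in WT cells, with no detection calls, limit how well their folds are known.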
